A study of Mus musculus with 17 samples.

Results

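Cytosolic ribosomal protein genes encode the proteins of the ribosome that translates messages in the cytoplasm. They were chosen by name alone: every gene in the expression tables whose symbol is Rps, Rpl or Rplp followed by a number and, where present, a single letter a, x, l, y or k, which leaves out pseudogenes named with -ps. The rule found 79 genes of the 17556 listed in at least 1 of 3 tables, 31 of the small (40S) subunit and 48 of the large (60S) subunit. All 79 were listed for TRMs and MDMs and 78 for tumor cells, where Rpl3l was not listed. The annotation used here (GENCODE M21, mouse build GRCm38) has 77 of them as protein-coding genes, while Rpl6l is annotated as a processed pseudogene and Rps4l as a transcribed processed pseudogene.

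The study asked how loss of Gpx4, the enzyme that reduces lipid hydroperoxides and holds back ferroptosis, alters autochthonous lung tumors and the cells around them. Every mouse carried KrasLSL-G12D/+ and Lkb1fl/fl (the KL genotype; the symbol of Lkb1 is Stk11), received intranasal Ad-Cre followed by tamoxifen, and gave cells from tumor-bearing lungs 10 weeks after Ad-Cre. KLG4 mice carried, in addition, Gpx4m/m, an allele in which Cre switches on a tamoxifen-inducible Dre recombinase from the Gpx4 locus, so that Dre deletes Gpx4 in cells that Ad-Cre had reached. The lines are on a C57BL/6 background and adult, sex-matched mice were used. mRNA of sorted tumor cells and of the populations that the labels call TRMs and MDMs (the sources used here do not spell these out) was sequenced in 2 libraries per genotype, 12 libraries in all. The tumor cell libraries of a group are described as coming from separate mice. For TRMs and MDMs the sources used here do not say so, and p-values there measure the spread between libraries, which may be technical. The other 5 samples of the series, CD8+ T cells and monocytes, were not analysed here.

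A ribosome carries 1 copy of nearly every ribosomal protein (RP), and the acidic stalk proteins Rplp1 and Rplp2 sit in several copies on Rplp0, where they recruit the elongation factors. Many RP messages begin with a C and a run of pyrimidines, the 5' terminal oligopyrimidine (TOP) tract, through which mTORC1 signalling and the La-related protein Larp1 control their translation as a group. RP messages are short, among the most abundant in growing cells, and members such as Rpl5 and Rpl11 bind Mdm2 when ribosome assembly fails.

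The start regions of 7 members are shown because they include members that moved most in tumor cells and both kinds of start, with and without the letters CTTTC of a pyrimidine run. Each line spans 15 bases before and 15 bases from the annotated start, 5' to 3' (RefSeq, build GRCm38.p6), and capitals mark CTTTC on the sense strand. Rpl38 lies at chr11:114668565-114668594 (plus strand), Rps26 at chr10:128626492-128626521 (minus), Rplp2 at chr7:141447636-141447665 (plus), Rps27 at chr3:90213634-90213663 (minus), Rpl37 at chr15:5116598-5116627 (plus), Rpl41 at chr10:128549154-128549183 (minus) and Rpl10 at chrX:74270801-74270830 (plus).
Rpl38: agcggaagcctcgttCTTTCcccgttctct
Rps26: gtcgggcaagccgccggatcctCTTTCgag
Rplp2: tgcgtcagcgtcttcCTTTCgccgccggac
Rps27: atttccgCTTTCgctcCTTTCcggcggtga
Rpl37: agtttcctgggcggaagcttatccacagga
Rpl41: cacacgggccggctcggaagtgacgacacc
Rpl10: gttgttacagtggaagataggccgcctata
The promoter table held 57 of the 79 members. CTTTC stood in this window in 16 of the 57 (28.1%), compared to 4.76% of the 27025 genes in the table, and CCGGAAG, the core letters of an ETS factor site, stood on either strand between 250 bases before and 50 bases after the start in 23 of the 57 (40.4%), compared to 9.93% of all. A window without these letters says only that they were not at the annotated start. The median difference between genotypes, given as a description, was -0.40 in the 16 with it and -0.56 in the 40 tested without it in tumor cells, -0.06 and -0.03 in TRMs, and -0.69 and -0.64 in MDMs (log2 scale).

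Rps27 and Rps27l are a paralog pair whose coding sequences have the same length, and they are shown because the libraries split their expression differently in each population. Rps27 lies at chr3:90212522-90213651 on the minus strand and Rps27l at chr9:66946086-66949516 on the plus strand (GRCm38), and capitals mark the bases at which the coding sequences differ.
Rps27: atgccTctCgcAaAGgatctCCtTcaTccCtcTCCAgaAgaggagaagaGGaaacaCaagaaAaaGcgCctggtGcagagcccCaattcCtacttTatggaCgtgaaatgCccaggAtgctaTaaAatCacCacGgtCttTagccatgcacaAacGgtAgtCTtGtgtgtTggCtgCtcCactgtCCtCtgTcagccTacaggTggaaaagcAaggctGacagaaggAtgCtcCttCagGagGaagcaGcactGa
Rps27l: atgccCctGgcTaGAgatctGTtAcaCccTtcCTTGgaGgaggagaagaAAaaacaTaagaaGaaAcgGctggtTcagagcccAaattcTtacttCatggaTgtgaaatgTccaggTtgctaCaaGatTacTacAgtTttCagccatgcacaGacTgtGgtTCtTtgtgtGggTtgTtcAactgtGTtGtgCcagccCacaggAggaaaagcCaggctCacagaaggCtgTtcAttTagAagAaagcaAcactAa
The 255 bases, 84 codons and a stop, differ at 61 positions (76.1% identity), and the longest identical run is 11 bases, so a read over coding sequence tells the genes apart. Not every member is so distinct. Over all 79 members, the median share of 100-base transcript windows found word for word in a transcript of another annotated gene was 41.4%. The share was 98.4% for Rps27, 91.6% for Rpl10, 66.9% for Rps28 and 46.3% for Rpl38, and 0% for 7 members including Rps27l and Rpl22. Levels of members with a high share are uncertain, because uniquely mapped reads were counted without strand. In tumor cells the median difference was -0.48 in the 33 members with at least 50% of windows shared and -0.51 in the other 45.

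Targeted and lineage genes were checked in each library before the members were compared. Gpx4 stood at 95.0 and 76.8 RPKM (reads per kilobase of exon, corrected for sequencing depth) in KL tumor cells and at 56.4 and 61.9 RPKM in KLG4 tumor cells, a difference of -0.53 (log2 scale, adjusted p = 0.036). It was 89.8 and 88.2 compared to 53.8 and 57.0 RPKM in TRMs (adjusted p = 0.07), and 44.9 and 71.3 compared to 93.6 and 97.7 RPKM in MDMs (adjusted p = 0.68). Summed over 10 neutrophil markers, MDM libraries held 11028 to 24125 RPKM, compared to 935 to 2727 RPKM over 12 monocyte-derived macrophage markers, so the label MDM was not borne out by its own markers as the leading ones, and KL replicate 2 stood apart with the lowest neutrophil and the highest macrophage sum. In tumor cells, the epithelial sum was 9172 and 6864 RPKM in KL and 3938 and 3959 RPKM in KLG4, the leukocyte sum 57.9 and 68.4 compared to 446 and 441 RPKM, and the neutrophil sum 192 and 298 compared to 2386 and 2296 RPKM. In TRMs, the alveolar macrophage sum was 8781 and 8688 RPKM in KL and 13330.2 and 12465 RPKM in KLG4, the epithelial sum 135 and 153 compared to 66.6 and 107 RPKM, and the sum of AT2 (alveolar type 2 epithelial) markers 172 and 185 compared to 38.1 and 72.0 RPKM. Counted reads, inferred from the steps between RPKM values, ran from 9.14M to 36.6M per library.

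RP messages were among the most abundant in every population. The median member stood at 184 RPKM in KL tumor cells, 182 RPKM in KL TRMs and 121 RPKM in KL MDMs, compared to 3.33, 3.08 and 3.70 RPKM for the median gene. Of the members, 46, 46 and 39 were among the 500 genes of highest level. The order of members was nearly the same in the 3 populations, with a Spearman correlation of the KL levels over 78 members of 0.96 between tumor cells and TRMs, 0.96 between tumor cells and MDMs and 0.99 between TRMs and MDMs, all on the same exon lengths. Rpl19, of the 60S subunit, was the highest in every table, at 1771 and 1333 RPKM in KL tumor cells, 1834 and 1885 RPKM in KL TRMs and 850 and 1445 RPKM in KL MDMs. Rpl23a came next in tumor cells at 1760.0 and 1261 RPKM and Rplp1 in TRMs at 1467 and 1364 RPKM, and the replicate ranges of Rpl19 and Rpl23a overlapped in tumor cells. Rps24 was the remaining member of the highest 3 in tumor cells (1374 and 944 RPKM) and in TRMs (1121 and 1192 RPKM), while Rps23 (575 and 995 RPKM) and Rpl23a (662 and 899 RPKM) followed Rpl19 in MDMs. At the other end stood Rps4l, at 8.28 and 6.87 RPKM in KL tumor cells, and the muscle paralog Rpl3l, at 6.09 and 6.86 RPKM in KL TRMs and 3.41 and 4.52 RPKM in KL MDMs. Rps15a (26.6 and 17.4 RPKM in KL tumor cells) and Rps29 (29.2 and 19.2 RPKM) were the lowest of the others there.

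The order between members depended on the length used. RPKM divides by all annotated exon bases of a gene, and the ratio of these to the coding bases ran with the level at a Spearman correlation of -0.66 over 76 members in KL tumor cells. Rps15a has 6270 exon bases for 393 coding bases, and Rpl41 has 1168 exon bases for a coding sequence of 78 bases and 25 codons, shown whole with its start and stop codons in capitals (chr10:128548114-128549305, minus strand, GRCm38).
Rpl41: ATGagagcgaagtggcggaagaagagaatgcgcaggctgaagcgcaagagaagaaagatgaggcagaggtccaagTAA
Per kilobase of coding sequence, Rpl5 (3477), Rpl26 (3250) and Rpl21 (3041) came first in KL tumor cells and Rps29 (98.2) last, Rps15a ranked 60 and Rpl41 18 of 76. Comparisons between genotypes do not depend on this length, since it cancels within a gene.

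The members took a smaller share of counted reads in KLG4 than in KL tumor cells, and the replicates of the KL groups differed. In tumor cells the members held 4.52% and 3.34% of counted reads in KL and 2.92% and 2.91% in KLG4, a log2 ratio of the means of -0.43. Both KLG4 libraries lay below both KL libraries, but the gap between the KL libraries was larger than that between KL replicate 2 and KLG4, and without KL replicate 1 the log2 ratio was -0.19. In TRMs the share was 3.50% and 3.68% in KL and 3.40% and 3.44% in KLG4 (-0.07). In MDMs it was 1.57% and 2.80% in KL and 1.33% and 1.34% in KLG4 (-0.71), and without KL replicate 2 the log2 ratio was -0.23. Both subunits had lower shares in KLG4 tumor cells: small-subunit members held 1.16% and 0.846% compared to 0.700% and 0.700% of reads in tumor cells, and large-subunit members 3.36% and 2.49% compared to 2.22% and 2.21%. With 2 libraries per group an exact permutation test cannot go below p = 0.333, so the shares are given without one. As these are bulk libraries, less RP message per cell and fewer cells of a high-RP type cannot be told apart.

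The share of mitochondrially encoded genes moved with genotype in the same libraries. It was 4.21% and 5.12% in KL and 8.95% and 8.88% in KLG4 tumor cells, 13.2% and 9.17% in KL and 1.43% and 2.40% in KLG4 TRMs, and 1.35% and 3.36% in KL and 0.494% and 0.661% in KLG4 MDMs. Another 6 annotated nuclear copies of mitochondrial sequence on chromosome 1 held 18.3% and 13.1% of reads in KL TRMs and 1.52% and 3.38% in KLG4 TRMs. Counted outside both, members held 5.11% and 4.74% of reads in KL and 3.50% and 3.65% in KLG4 TRMs, a log2 ratio of -0.46 with no overlap, so the near equality in TRMs held only on all counted reads.

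**Figure D1:**
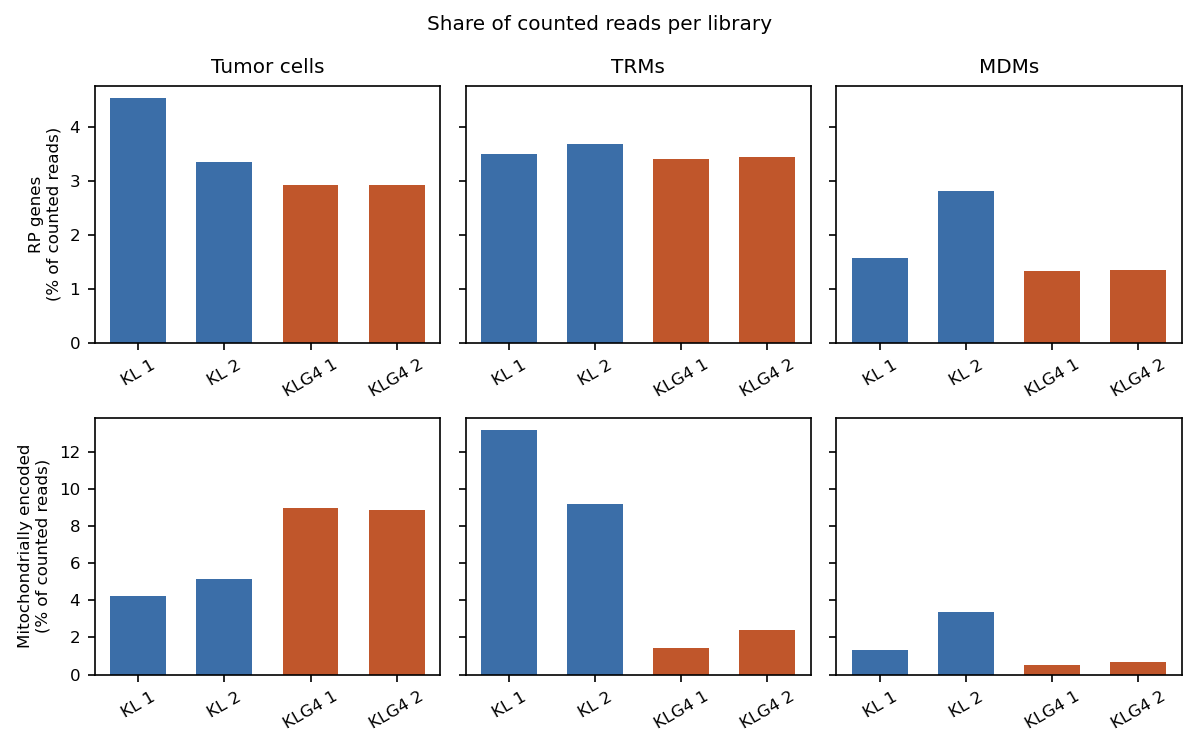
Percent of counted reads per library for the RP genes (upper row) and for mitochondrially encoded genes (lower row), in KL (blue) and KLG4 (orange) libraries of each population; each bar is 1 library and axes start at 0. RP genes held 4.52% and 3.34% in KL and 2.92% and 2.91% in KLG4 tumor cells, and KL replicate 2 of MDMs (2.80%) stood above the other 3 MDM libraries.

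In tumor cells, RP genes were mostly lower in KLG4 than in KL, and a few went the other way. limma on log2(RPKM + 0.1), with Benjamini-Hochberg adjustment over all tested genes of the table, called 28 of the 78 members (35.9%) at an adjusted p under 0.05, compared to 40.3% of the 13770 genes tested. By direction, 27 members (34.6%) fell, compared to 19.6% of all genes, and 1 member rose, compared to 20.6% of all genes. Among the 506 other genes with a mean of at least 100 RPKM, 41.3% fell, so the share of members that fell was above that of all genes and below that of abundant genes. The median difference was -0.48 over the members (1.40 times lower), -0.09 over all tested genes and -0.32 over the abundant genes. Without KL replicate 1 the median of the members was -0.27, and without KL replicate 2 it was -0.70. The median of the members minus that of all genes, -0.39, was -0.13 with quantile scaling, -0.13 without KL replicate 1 and -0.69 without KL replicate 2. Over the members alone, the median was -0.55 over the 31 small-subunit and -0.43 over the 47 large-subunit members. At an unadjusted p under 0.05, 45 members passed (50.4% of all genes), 43 lower (26.7%) and 2 higher (23.6%). The estimate was below 0 for 70 members (55.9% of all genes) and above 0 for 8 (44.1%). The KLG4 values both fell short of the KL values for 60 of 78 members, compared to 42.2% of all genes, and both exceeded them for 3, compared to 32.5%. In the same libraries 10 of 10 epithelial and 10 of 10 AT2 markers were called lower. There 10 of 10 leukocyte and 9 of 9 neutrophil markers were called higher, and the part of these in the values of the members was not tested. The count of called members rested on the scaling and on single libraries: it was 10 when libraries were scaled by median ratios (35.5% of all genes called in the same fit), 10 (3 higher, 7 lower) when scaled to the median member (28.0%), 54 without KL replicate 1 (48.8%), 71 without KL replicate 2 (54.3%), and 6 and 7 without KLG4 replicate 1 or 2 (15.7% and 14.8%). With 1 library of a group left out, the spread comes from the 2 libraries of the other group and the lone library is assumed to vary like them, so the higher counts rest on the close KLG4 pair and the lower ones on the wider KL pair.

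**Figure D2:**
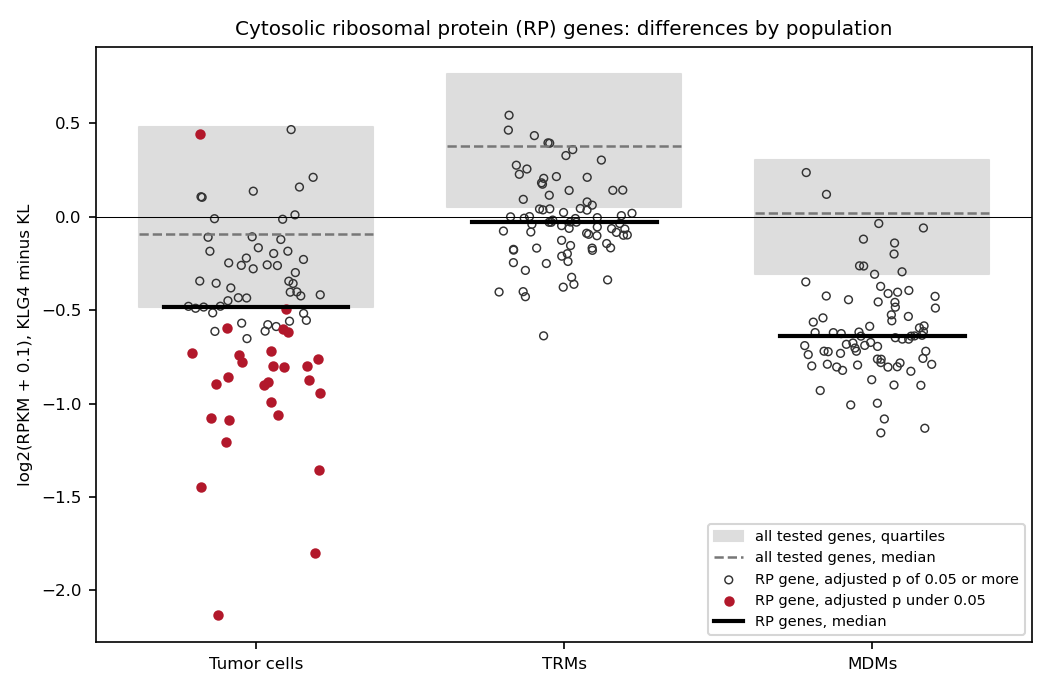
Difference in log2(RPKM + 0.1), KLG4 minus KL, of each RP gene (points, spread sideways for visibility) in each population; red points passed an adjusted p under 0.05 (limma), black bars are medians over RP genes, and grey boxes and dashed lines are the quartiles and the median of all tested genes. The RP median lay below the median of all genes in each population, by 0.39 in tumor cells, 0.41 in TRMs and 0.66 in MDMs on this scale and with all libraries, and red points occurred in tumor cells only.

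The members that fell most in tumor cells were small proteins of either subunit. Rpl38, a 60S protein known from mice with skeletal patterning defects, stood at 204 and 108 RPKM in KL and 45.1 and 40.2 RPKM in KLG4, a log2 difference of -1.80 (SE 0.30, adjusted p = 0.0077). Rpl37, a zinc-finger protein of the 60S subunit, stood at 298 and 188 RPKM compared to 87.3 and 86.4 RPKM (-1.45, adjusted p = 0.0060). Rps28, at the messenger RNA exit of the 40S subunit, stood at 57.3 and 29.3 RPKM compared to 15.2 and 16.8 RPKM (-1.35, adjusted p = 0.022). In these genes the KLG4 libraries lay close together and every KL value lay above them, and the call of Rps28 was lost without KLG4 replicate 1 (adjusted p = 0.051). The pseudogene Rpl6l had the largest estimate, at 42.2 and 20.6 RPKM in KL and 6.06 and 7.29 RPKM in KLG4 (-2.13, SE 0.35, adjusted p = 0.0067). In each of the 27 members that fell, KL replicate 1 was the highest library and KL replicate 2 lay between it and the KLG4 libraries.

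With the settings used throughout, only Rpl10 passed the test upward. Rpl10, which joins the 60S subunit late and helps to form the peptidyl transferase centre, stood at 119 and 107 RPKM in KL and 149 and 157 RPKM in KLG4 tumor cells, a log2 difference of 0.44 (SE 0.12, adjusted p = 0.031). The call of Rpl10 was lost without a variance trend (adjusted p = 0.077) and with the replicate block (adjusted p = 0.066). It was also lost without KLG4 replicate 1 or 2 (estimates 0.48 and 0.41), and the estimate lay between 0.37 and 0.61 in every alternative. Rplp1 stood at 582 and 423 RPKM in KL and 696 and 676 RPKM in KLG4 (0.47, SE 0.18, adjusted p = 0.091). It passed with quantile scaling (0.62, adjusted p = 0.015), and its estimate ran from 0.24 to 0.70 with 1 library left out. Rps26, which lines the exit channel for the message on the 40S subunit, stood at 253 and 203 RPKM compared to 269 and 256 RPKM (0.21, adjusted p = 0.29). It too passed with quantile scaling (0.33, adjusted p = 0.045), and its estimate ran from 0.05 to 0.37 with 1 library left out. In these 3 genes, and no other members, each KLG4 value exceeded each KL value.

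The stalk proteins had estimates of different sign. Rplp2, the partner of Rplp1 on the stalk, fell in tumor cells, with 353 and 216 RPKM compared to 162 and 156 RPKM (-0.80, SE 0.24, adjusted p = 0.047). This call was lost in 7 alternatives: with a filter at a mean of 5 RPKM (adjusted p = 0.054), median-ratio scaling (0.13), no variance trend (0.074), reads outside mitochondrially encoded genes (0.060) or outside these and their nuclear copies (0.074), and without KLG4 replicate 1 or 2 (0.15 and 0.18). Rplp0, their anchor, stood at 291 and 227 RPKM compared to 219 and 223 RPKM (-0.22, adjusted p = 0.29). Rplp1 and Rplp2 thus lay on opposite sides in libraries whose groups did not overlap in either gene.

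Of Rpl5, Rpl11, Rps6, Rps27a, Rps19, Rpl22 and Rps4x, members known for other roles, disease or X linkage, only Rps19 passed the test in tumor cells with the settings used throughout. Rpl5 stood at 908 and 678 RPKM in KL and 618 and 618 RPKM in KLG4 (-0.34, adjusted p = 0.16), and Rpl11, which binds Mdm2 with it, at 129 and 94.1 RPKM compared to 81.1 and 85.8 RPKM (-0.40, adjusted p = 0.12). Rps6, the substrate of S6 kinase, stood at 894 and 690.4 RPKM compared to 563 and 556 RPKM (-0.49, adjusted p = 0.059). Rps27a, which is made as a fusion with ubiquitin, stood at 78.4 and 55.9 RPKM compared to 46.5 and 46.0 RPKM (-0.52, adjusted p = 0.073). The non-overlap of the groups was complete in these 4 genes. Rps19, the gene most often mutated in Diamond-Blackfan anemia, fell from 85.2 and 60.1 RPKM to 41.5 and 42.0 RPKM (-0.78, SE 0.19, adjusted p = 0.024), a call lost with median-ratio scaling (adjusted p = 0.081) and without KLG4 replicate 1 or 2 (0.12 and 0.12). Rpl22, dispensable for most ribosomes but needed in lymphocyte development, had an adjusted p of 0.0504 (-0.58). It passed with a pseudocount of 1 (adjusted p = 0.043), no filter (0.047), quantile scaling (0.049) and the replicate block (0.035), and Rps6 passed with quantile scaling (0.044). With 1 library left out, the estimate ran from -0.55 to -0.13 for Rpl5, -0.63 to -0.17 for Rpl11 and -0.68 to -0.30 for Rps6. It ran from -0.76 to -0.27 for Rps27a, -0.81 to -0.34 for Rpl22 and -0.15 to 0.18 for Rps4x. Rps4x, encoded on the X chromosome, stood at 278 and 221 RPKM compared to 255 and 244 RPKM, with overlapping groups (0.01, adjusted p = 0.96).

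The share of each paralog in its pair is given per library, as a description with no test. Rps27l, a p53 target, fell from 48.4 and 40.7 RPKM to 21.04 and 20.9 RPKM (-1.08, SE 0.13, adjusted p = 0.0028), while Rps27 stood at 74.0 and 47.9 RPKM compared to 46.1 and 47.0 RPKM (-0.36, adjusted p = 0.24). Rps27l made up 39.5% and 45.9% of the summed RPKM of the pair in KL and 31.4% and 30.8% in KLG4 tumor cells. The same share was 23.4% and 23.1% compared to 23.5% and 26.5% in TRMs, and 13.7% and 11.1% compared to 15.5% and 16.6% in MDMs. Tumor cells therefore held the highest share of Rps27l in all 4 libraries, and in them it was lower in KLG4. Rps4l fell from 8.28 and 6.87 RPKM to 3.005 and 4.996 RPKM (-0.94, SE 0.27, adjusted p = 0.043) and never made up more than 3.02% of its pair with Rps4x in tumor cells. The call of Rps4l was lost with a filter at a mean of 5 RPKM (adjusted p = 0.0501), median-ratio scaling (0.083), reads outside mitochondrially encoded genes (0.055) or outside these and their nuclear copies (0.066), no variance trend (0.057), and without KL replicate 1 or KLG4 replicate 1 (0.094 and 0.23). Rpl6 fell from 654 and 548 RPKM to 428 and 421 RPKM (-0.50, SE 0.13, adjusted p = 0.035), and its pseudogene Rpl6l went from 6.06% and 3.63% to 1.40% and 1.70% of the pair. The call of Rpl6 was lost with median-ratio scaling (adjusted p = 0.18), reads outside mitochondrially encoded genes (0.051) or outside these and their nuclear copies (0.072), no variance trend (0.071), the replicate block (0.063), and without KLG4 replicate 1 or 2 (0.33 and 0.35). Rpl3 stood at 528 and 421 RPKM compared to 400.3 and 395 RPKM (-0.25, adjusted p = 0.23). Rpl10l and Rpl39l, the remaining paralogs looked for, were not listed in the tables.

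In tumor cells, the members with the shortest coding sequences lay lowest in KLG4. Of the 10 members with under 300 coding bases 8 fell (median -1.07), of the 27 with at least 300 and under 450 bases 11 fell (-0.59), of the 19 with at least 450 and under 600 bases 3 fell (-0.26), and of the 20 with at least 600 bases 3 fell (-0.29). Of genes that are not members, 34.2%, 31.9%, 23.6% and 17.5% fell in the same 4 classes, so the counts in the 2 longer classes were no higher than in other genes. Over 76 members the Spearman correlation of the difference with coding length was 0.51, a description over genes that share libraries. The medians of genes that are not members were -0.35, -0.31, -0.17 and -0.08, so they too lay lower where the coding sequence was short, with a smaller gap between classes. In TRMs the order was turned around: the median was 0.30 in the 10 shortest members and -0.10 in the 21 longest, while other genes went from 0.10 to 0.42 (Spearman correlation over members -0.36). In MDMs the medians of the members were -0.29, -0.69, -0.58 and -0.74 from the shortest to the longest class, compared to -0.13 and 0.04 in the shortest and longest other genes (Spearman correlation over members -0.27).

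**Figure D3:**
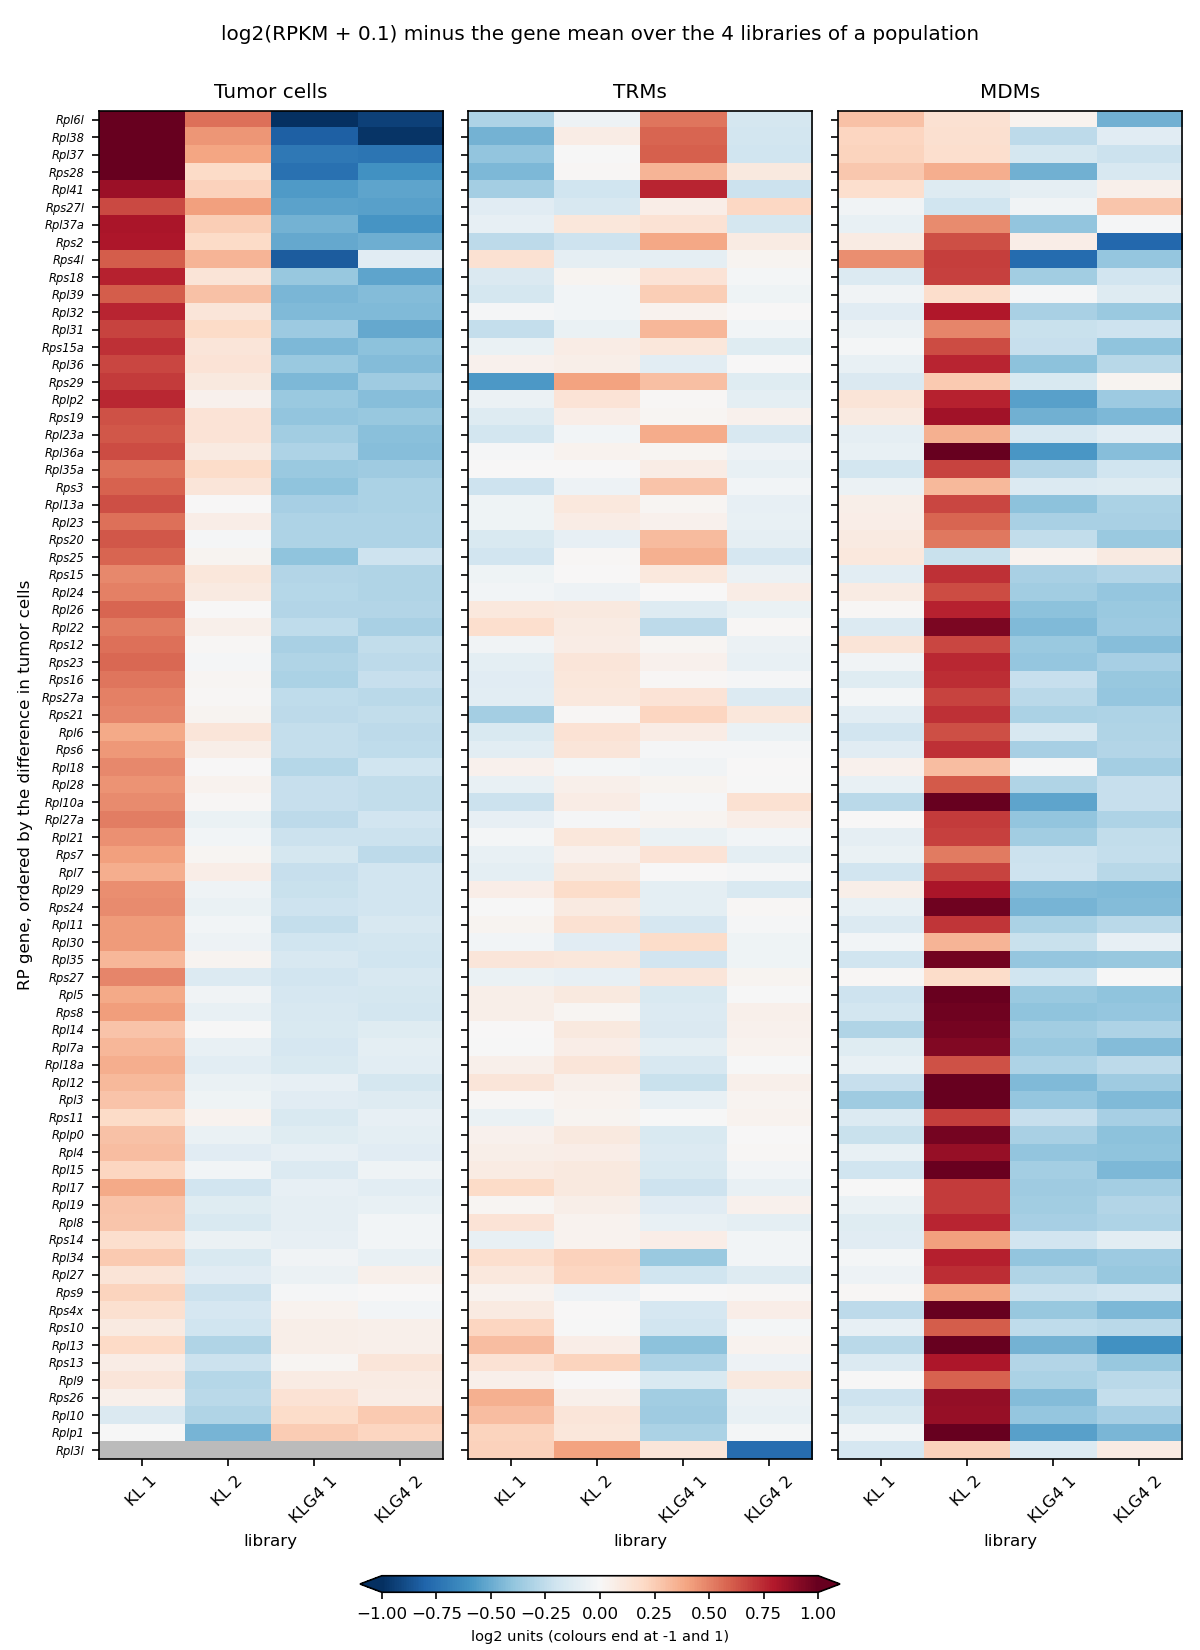
log2(RPKM + 0.1) of the RP genes reported here (rows, ordered by the difference in tumor cells) in each of 12 libraries (columns), minus the mean of that gene over the 4 libraries of the population; red is higher, blue is lower, grey is not listed. KL replicate 1 was the highest library for most genes in tumor cells and KL replicate 2 in MDMs, and in TRMs the upper rows were high in KLG4 replicate 1.

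In TRMs, no member passed the test. Of the 79 members tested, 0 had an adjusted p under 0.05 with limma and 2 an unadjusted p under 0.05, compared to 1.8% (1.36% higher, 0.437% lower) and 28.3% of the 10990 genes tested. Of the latter, 1 was higher (25.5% of all genes) and 1 lower (2.78%). The median difference was -0.03 over the members and 0.38 over all tested genes, a gap of -0.41 that was -0.17 with quantile scaling. Over the 496 other genes with a mean of at least 100 RPKM in TRMs, the median was 0.20. Of all tested genes, 78.4% had an estimate above 0 and 21.6% below, compared to 33 and 46 of 79 members. In the same libraries the alveolar macrophage sum was higher in KLG4 (4 of 12 markers called higher) and the AT2 and epithelial sums were lower (2 of 9 and 0 of 8 markers called lower, the latter with 6 at an unadjusted p under 0.05), and their part in the values of the members was not tested. The KLG4 values both fell short of the KL values for 23 members, compared to 8.95% of all genes, and both exceeded them for 11, compared to 53.7%. The 2 members at an unadjusted p under 0.05 were Rps2 and Rpl10. Rps2, at the 40S messenger RNA entry, stood at 96.0 and 99.8 RPKM in KL and 150.3 and 121 RPKM in KLG4 (0.46, SE 0.17, adjusted p = 0.15). Rpl10 stood at 218 and 191 RPKM compared to 137 and 167 RPKM (-0.43, SE 0.17, adjusted p = 0.18).

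Among members with KLG4 values above KL in TRMs, Rps28 stood at 26.9 and 37.1 RPKM in KL and 46.5 and 39.3 RPKM in KLG4 TRMs (0.44, adjusted p = 0.24), and Rps27l at 16.9 and 16.4 RPKM compared to 19.2 and 21.2 RPKM (0.28, adjusted p = 0.34). Rpl31, at the 60S exit tunnel, and Rps21 also had KLG4 values that exceeded both KL values (0.30 and 0.33). The estimates of Rps27l, Rpl31 and Rps21 depended on scaling and were below 0 with median-ratio scaling (-0.07, -0.05 and -0.02). Rpl41 (0.54), Rpl37 (0.40) and Rpl38 (0.39) had larger estimates than these, but their groups overlapped: Rpl38 stood at 46.5 and 68.0 RPKM in KL and 96.5 and 56.7 RPKM in KLG4, and KLG4 replicate 1 was the high library in all 3 genes. Of the members with KLG4 values under KL, Rps26 stood at 336 and 272 RPKM compared to 207 and 253 RPKM (-0.40, adjusted p = 0.22), Rpl34 at 252 and 262 RPKM compared to 173 and 219 RPKM (-0.40, adjusted p = 0.20), and Rpl13 at 158 and 133 RPKM compared to 95.7 and 130.3 RPKM (-0.38, adjusted p = 0.27). Rplp1 stood at 1467 and 1364 RPKM compared to 1010.4 and 1241 RPKM (-0.34, adjusted p = 0.25). The muscle paralog Rpl3l had the lowest estimate, at 6.09 and 6.86 RPKM compared to 5.64 and 3.003 RPKM (-0.64, SE 0.34, adjusted p = 0.27). Rps6 (-0.02), Rps19 (0.06), Rps27a (0.00) and Rpl3 (-0.05) lay near 0 with overlapping groups.

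In MDMs, nearly every member was lower in KLG4 by estimate and none passed the test. limma called 0 of 79 members, compared to 0% of the 10475 genes tested, and 10 members had an unadjusted p under 0.05, compared to 6.74% of all genes. All 10 were lower (3.92% of all genes) and 0 higher (2.82%). The median difference was -0.64 over the members and 0.02 over all tested genes, and 77 of 79 estimates lay below 0 (47.9% of all genes) and 2 above (52.1%). The KLG4 values both fell short of the KL values for 69 members, compared to 19.1% of all genes. The level of KL replicate 2 set the size of these values: without it the median of the members was -0.21 (-0.27 relative to all genes), and without KL replicate 1 it was -1.03 with 62 members called lower (25.5% of all genes called in that fit), a count that rests on the spread of the close KLG4 pair alone, with KL replicate 2 assumed to vary like it. KL replicate 2 is the library with the lowest neutrophil sum (11028 RPKM), the highest monocyte-derived macrophage sum (2727 RPKM, next highest 1129 RPKM) and the highest epithelial sum (275 RPKM, next highest 79.8 RPKM), and the part of these in the result was not tested. That KL replicate 1 also lay above both KLG4 libraries in the 69 members without overlap follows from how they were picked.

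Rps4l had the lowest estimate in MDMs, at 4.34 and 5.11 RPKM in KL and 1.79 and 2.36 RPKM in KLG4 (-1.16, SE 0.28, adjusted p = 0.68), with both KL libraries clear of KLG4. Rplp2 stood at 267 and 416 RPKM compared to 168 and 190 RPKM (-0.90), and Rps19 at 17.7 and 29.9 RPKM compared to 11.9 and 12.2 RPKM (-0.93). In Rpl13 (-1.08), Rpl36a (-1.01) and Rplp1 (-0.998) the gap rested more on KL replicate 2: Rpl13 stood at 35.4 and 109 RPKM compared to 30.7 and 28.0 RPKM. Rps27l was the single member whose KLG4 values exceeded both KL values (1 of 79, compared to 25.4% of all genes), at 11.4 and 10.2 RPKM compared to 11.4 and 14.1 RPKM (0.24, adjusted p = 0.73), with KL replicate 1 and KLG4 replicate 1 nearly equal. Rpl41 stood at 50.6 and 41.3 RPKM compared to 42.4 and 46.8 RPKM (-0.04), with overlapping groups.

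Set side by side, the differences of the members in tumor cells and TRMs ran in opposite order. Over 78 members, Pearson's r was -0.76 and Spearman's rho -0.71 between the populations, compared to 0.09 and 0.14 over 10141 other genes tested in both. Without the annotated pseudogenes r was -0.77. These populations share no libraries, but members share sequence features and exon lengths, so the correlation is given as a description with no p. Of the 78, 58 lay on opposite sides of the members' median in the 2 populations, and 14 had groups that did not overlap and differed in direction, 11 of them lower in KLG4 tumor cells and higher in KLG4 TRMs (among them Rps2, Rps28 and Rpl31) and 3 the reverse (Rplp1, Rpl10 and Rps26). Over all 10219 genes tested in both, 24.5% had such opposite groups. The TRM side of this count depends on the scale, since with median-ratio scaling the TRM estimates of members such as Rps21, Rps27, Rps27l and Rpl31 were below 0 (-0.02, -0.21, -0.07 and -0.05). Between tumor cells and MDMs r was -0.34, and between TRMs and MDMs 0.45, close to the 0.48 over other genes.

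For 3 members, picked from the ends of this order after their values were seen, the level within each library is given. Relative to the median member of its own library, Rplp1 stood 1.44 and 1.46 higher (log2 scale) in KL and 2.40 and 2.33 higher in KLG4 tumor cells, and 3.07 and 2.86 compared to 2.61 and 2.89 in TRMs. Rpl38 stood at -0.07 and -0.52 compared to -1.54 and -1.74 in tumor cells, and at -1.91 and -1.47 compared to -0.78 and -1.56 in TRMs. Rpl10 stood at -0.85 and -0.53 compared to 0.18 and 0.23 in tumor cells, and at 0.31 and 0.02 compared to -0.27 and 0.00 in TRMs. On this relative scale the groups did not overlap in any of the 3 genes in tumor cells, while in TRMs they overlapped in Rplp1 and Rpl38. Mitochondrially encoded genes took the larger share of reads in KLG4 tumor cells (8.88% to 8.95%) and in KL TRMs (9.17% to 13.2%), and the part of that in the opposite order was not tested.

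**Figure D4:**
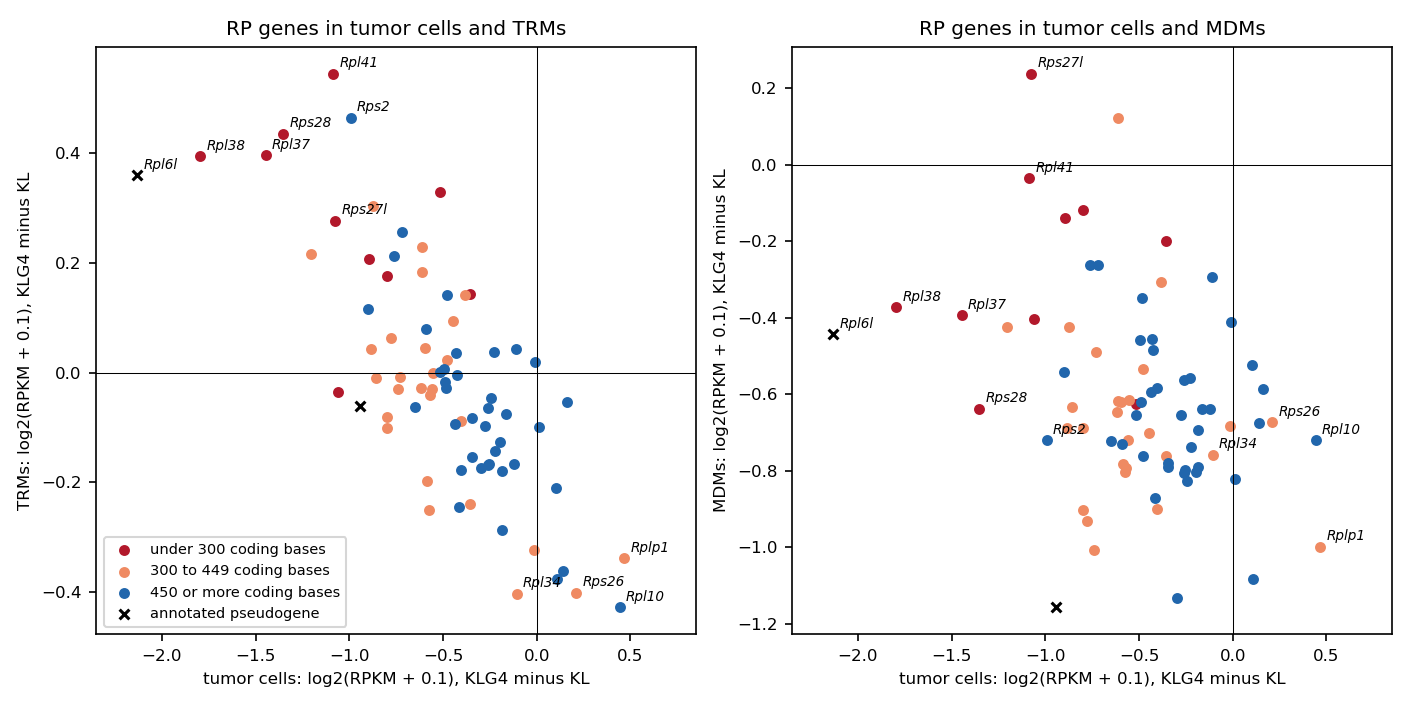
Difference in log2(RPKM + 0.1), KLG4 minus KL, of each RP gene in tumor cells (horizontal axis) and in TRMs (left, vertical axis) or MDMs (right, vertical axis), coloured by coding length. Points run from the upper left (Rpl38, Rpl37, Rps28, Rpl41) to the lower right (Rplp1, Rpl10, Rps26) for TRMs, where Pearson's r over 78 genes was -0.76, and less so for MDMs, where it was -0.34.

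Retained pseudogenes offered a view of how reads were divided. The tables list 60, 50 and 45 RP pseudogenes named with -ps for tumor cells, TRMs and MDMs. They held 0.0637% to 0.0864% of counted reads in tumor cells and 27 of 60 (45%) fell there, compared to 19.6% of all genes, and 5 (8.33%) rose, compared to 20.6%, with a median of -0.83. In tumor cells Rpl21-ps15 rose from 180 and 199 RPKM to 344 and 338 RPKM (0.85, SE 0.11, adjusted p = 0.0036), while its parent Rpl21 stood at 504 and 360.1 RPKM compared to 315 and 315 RPKM (-0.43, adjusted p = 0.11). Rpl36a-ps3 fell from 105 and 61.8 RPKM to 31.6 and 29.0 RPKM (-1.41, SE 0.26, adjusted p = 0.010), as did its parent Rpl36a (-0.74, adjusted p = 0.036, which was 0.12 with median-ratio scaling, 0.063 without a variance trend, 0.060 outside mitochondrially encoded genes and their nuclear copies, and 0.13 and 0.20 without KLG4 replicate 1 or 2). Rps6-ps4 (-0.41), Rps23-ps1 (-0.32) and Rpl14-ps1 (-0.15) had no adjusted p under 0.05, and neither had their parents. In TRMs and MDMs 0 of 49 and 0 of 45 tested passed with limma, compared to 1.8% and 0% of all genes. At an unadjusted p under 0.05, 7 and 5 passed, compared to 28.3% and 6.74% of all genes in these populations. There Rps13-ps2 stood above its own parent, at 185 and 172 RPKM in KL TRMs, where Rps13 stood at 68.8 and 72.6 RPKM, and Rpl21-ps15 stood at 448.5 and 374 RPKM in KL and 236 and 351 RPKM in KLG4 TRMs (-0.51, adjusted p = 0.21). Rpl17-ps10 stood at 138 and 175 RPKM in KL TRMs.

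Other lists of the translation machinery had medians under that of all genes in tumor cells (-0.09), and the share of their genes called lower ran from 19.2% to 50%, compared to 19.6% of all genes and 41.3% of the abundant genes. The differences between these lists and the members were not tested. RP genes outside the name rule, such as Fau, gave 4 of 8 lower (50%) and 0 higher (median -0.56), including Rps27rt (-0.86) and Rpl36al (-0.61). Mitochondrial ribosomal proteins, which build the separate ribosome of mitochondria, gave 34 of 78 lower (43.6%) and 0 higher (median -0.49), led by Mrpl15 (-1.81), Mrpl32 (-1.27) and Mrpl12 (-1.27). Ribosome biogenesis genes gave 12 of 33 lower (36.4%) and 0 higher (-0.41), and they were led by Nop10 (-1.80), a snoRNP protein, Fbl (-1.39), the methyltransferase fibrillarin, and Gar1 (-1.08). RNA polymerase I genes gave 5 of 12 lower (41.7%, median -0.46), with Polr1d (-0.90), Polr1c (-0.66) and Rrn3 (-0.59). Elongation factors and other TOP messages gave 5 of 26 lower (19.2%, median -0.29), a share near that of all genes, including Naca (-0.84), Hnrnpa1 (-0.55) and Npm1 (-0.49). All values named in this paragraph had an adjusted p under 0.05.

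The 4 lists of regulators are set against all genes in tumor cells, of which 20.6% were called higher and 19.6% lower. Of 27 mTORC1 and TOP control genes 3 rose (11.1%) and 4 fell (14.8%), both under the share of all genes (median -0.08). Sesn2, a stress-induced inhibitor of mTORC1, went from 1.63 and 2.42 RPKM to 6.26 and 7.47 RPKM (1.73, adjusted p = 0.0040). Stk11 went from 25.9 and 25.8 RPKM to 61.6 and 61.6 RPKM (1.25, adjusted p = 0.0009). Stk11 is the floxed gene of the model, and the paper places the engineered Gpx4 locus upstream of it. It was also higher by estimate in KLG4 TRMs (0.88) and MDMs (1.49), and the part of the engineered alleles in its values was not tested. Strada, the pseudokinase partner of Stk11, went from 21.3 and 17.6 RPKM to 8.11 and 8.37 RPKM (-1.22, adjusted p = 0.0026). Of 12 p53 targets 3 rose (25%) and 5 fell (41.7%, median -0.38), with Fas at 1.80, Bax at -1.68 and Aen at -1.22. Of 11 genes of the MYC network 2 rose (18.2%, near the share of all genes), Mxd1 (1.21) and Mycl (0.89), 0 fell by the adjusted p of limma (1 at an unadjusted p under 0.05), and the median was 0.25. Of 12 ribosome quality and stress genes 3 fell (25%), namely Nemf (-0.72), Zfp598 (-0.67) and Abce1 (-0.59), 0 rose at an adjusted or unadjusted p under 0.05, and the median was -0.38. The leukocyte markers named above rose in the same comparison (10 of 10 called, median 3.54), as did 9 of 9 neutrophil, 9 of 9 T cell and 9 of 10 fibroblast markers, while 10 of 10 epithelial and 10 of 10 AT2 markers fell. These marker levels differed between genotypes in the same libraries as the members, and their part in the values of the members was not tested.

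In TRMs and MDMs none of these 9 lists had a gene with an adjusted p under 0.05 (limma), compared to 1.8% and 0% of all genes. An unadjusted p under 0.05 was found for 1 to 7 genes per list in TRMs (28.3% of all genes) and 0 to 5 in MDMs (6.74%). The lists held 8 to 78 tested genes in TRMs and 8 to 69 in MDMs. In TRMs the medians were 0.33 for ribosome biogenesis, 0.37 for RNA polymerase I, 0.10 for TOP partners, -0.04 for RP genes outside the rule, -0.02 for mitochondrial ribosomal proteins, 0.46 for mTORC1 and TOP control, 0.63 for the MYC network, 0.42 for p53 targets and 0.41 for ribosome quality, compared to 0.38 for all genes. Larp1, which binds TOP messages, stood at 6.90 and 7.71 RPKM in KL and 24.7 and 15.97 RPKM in KLG4 TRMs (1.43, adjusted p = 0.056). In MDMs the medians were -0.33, -0.09, -0.39, -0.43, -0.44, 0.09, 0.11, 0.26 and 0.10 in the same order, compared to 0.02 for all genes.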

How the data were processed

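Libraries were made from poly(A) RNA with a non-directional tagmentation kit and read as 150-bp pairs per the labels. The authors trimmed reads with Trim Galore 0.6.4, aligned them to the mouse genome (Ensembl, GRCm38) with HISAT2 2.0.5 and counted them per gene with featureCounts 2.0.0, and deposited RPKM values, 1 table per population. RPKM times gene length gave whole reads within 0.05 for 99.99% or more of values under 2000 reads with a length (larger values, which include many members, were not checked), so depth and shares of reads were computed from it. Gene lengths are those of the tumor cell table. The authors' fold changes and p-values, also in these tables, were not used. Date-like gene names, 21 in the tumor cell table and 19 in each of the others, were left as deposited.

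A gene was tested where 2 or more of the 4 libraries of its table reached 1 RPKM. The test was limma 3.58.1 in R 4.3.3, two-sided, on RPKM plus 0.1 in log2 units, with the prior variance trended on mean level, and p-values were adjusted by Benjamini-Hochberg over each table, with adjusted p under 0.05 called. Every fold change is on that scale, so changes of low genes are understated. Named genes were 12 members by role, paralog pairs, the 3 highest and lowest in KL and the 5 largest changes each way with groups apart, and for lists the 3 largest among those called (unadjusted p under 0.05 where fewer than 3), and the 5 pseudogenes of highest level. Members and lists were chosen with earlier results of these data known. Alternatives covered the pseudocount, filter, scaling, trend, replicate block and each library left out. Replicate numbers were not taken as pairs. No protein sequences were used here, and values of some single genes are not reported here.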

Additional observations from a re-analysis of the deposited data

Results flagged for a closer look

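The 9 members here, those among the named genes, had groups that did not overlap and that pointed in opposite directions in a pair of populations, and the difference between populations was not tested. Over all members, 14 of 78 (17.9%) did so between tumor cells and TRMs, compared to 24.5% of all genes, 4 of 78 (5.13%) between tumor cells and MDMs, compared to 12.8%, and 10 of 79 (12.7%) between TRMs and MDMs, compared to 7.19%, so the first 2 shares were under those of all genes. Each value is the log2 difference (KLG4 minus KL) in the first population minus that in the second. For tumor cells minus TRMs it was 0.87 for Rpl10, 0.80 for Rplp1 and 0.61 for Rps26, which were higher in KLG4 tumor cells. It was -1.79 for Rps28, -1.46 for Rps2, -1.35 for Rps27l, -1.18 for Rpl31, -0.84 for Rps21 and -0.50 for Rps27, which were lower in KLG4 tumor cells. For tumor cells minus MDMs it was 1.47 for Rplp1, 1.16 for Rpl10, 0.88 for Rps26 and -1.31 for Rps27l. For TRMs minus MDMs it was 1.18 for Rps2, 1.07 for Rps28, 0.95 for Rps21, 0.73 for Rpl31 and 0.34 for Rps27.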

How the results depend on the processing

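The count of called members in tumor cells, 28, was 10 with median-ratio scaling, 10 with libraries scaled to the median member and 18 without a variance trend, and leaving out 1 library gave 6 to 71, while 14.8% to 54.3% of all genes were called. The median of the members in tumor cells ran from -0.70 to -0.27 with 1 library left out. In MDMs, leaving out 1 library gave 0 to 62 called members. These fits take the spread from the other group alone. In TRMs the median difference was -0.18 with quantile scaling, -0.38 with median-ratio scaling, -0.17 on reads outside mitochondrially encoded genes and -0.42 outside these and their nuclear copies (the last was chosen after seeing the data), and -0.093 to 0.013 with 1 library left out. The log2 ratio of shares in TRMs was -0.21 and -0.46 on the same 2 sets of reads. With 1 library left out it ran from -0.63 to -0.19 in tumor cells and from -1.07 to -0.23 in MDMs. The cause was not tested. With the replicate number as a block, 29 of 78 members were called in tumor cells, compared to 39.1% of all genes in that fit. In TRMs and MDMs 0 members were called, compared to 4.28% and 0% of all genes. With the block in tumor cells, Rpl10 and Rpl6 lost their calls (adjusted p = 0.066 and 0.063) while Rpl22 gained one (adjusted p = 0.035). Same-numbered libraries deviated together at correlations of 0.02, -0.06 and 0.05, so the numbers were not taken as pairs. Over 83 results of named members, 945 alternative values kept their side of the threshold and their sign, 47 became significant and 40 lost significance.

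Signs of single members turned in these cases. In tumor cells Rpl34 was 0.053 with quantile scaling, 0.057 with median-ratio scaling and 0.0059 outside mitochondrial genes and copies. In TRMs with quantile scaling, Rpl6 was -0.14, Rpl6l -0.031, Rps19 -0.26, Rps27 -0.14, Rps27a -0.29 and Rps27l -0.078. With median-ratio scaling, Rpl31 was -0.048, Rpl6 -0.35, Rps19 -0.29, Rps21 -0.024, Rps27 -0.21, Rps27a -0.35 and Rps27l -0.074. Outside mitochondrially encoded genes, Rpl6 was -0.14, Rps19 -0.080 and Rps27a -0.14. Outside these and the copies, Rpl31 was -0.086, Rpl6 -0.38, Rpl6l -0.028, Rps19 -0.33, Rps21 -0.062, Rps27 -0.25, Rps27a -0.39 and Rps27l -0.11. Leaving out 1 library, the ranges that crossed 0 were, in tumor cells Rpl13 -0.14 to 0.36, Rpl34 -0.31 to 0.10 and Rps4x -0.15 to 0.18. They were, in TRMs Rpl3 -0.10 to 0.0037, Rpl36a -0.064 to 0.0056, Rpl37 -0.0011 to 0.79, Rpl6 -0.14 to 0.15, Rplp2 -0.18 to 0.016, Rps19 -0.038 to 0.16, Rps27a -0.14 to 0.14, Rps4l -0.18 to 0.061, Rps4x -0.22 to 0.020 and Rps6 -0.13 to 0.10. They were, in MDMs Rpl3l -0.26 to 0.14. Depth limits the lowest members most, and 2 libraries per group limit every comparison.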
